A study of Mus musculus with 2 samples.

Results

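The actin cytoskeleton of the newborn mouse lens was examined through 47 genes for actins and actin-binding proteins, the spectrin membrane skeleton, the Clic proteins, and the factors and targets of the SRF and YAP pathways. The members were chosen by name, with earlier results of these data known. All 47 had at least 1 probe on the arrays, among 20655 genes with a named probe. The 72 probes of these genes were read on 2 Agilent 1-colour arrays, 1 of control lens RNA and 1 of lens RNA with Foxp1 deleted in the lens, both at postnatal day 0. Foxp1 is a forkhead transcription factor, mostly a repressor. The control is labelled wild-type and the other sample Foxp1 KO, both on a C57BL/6 mixed background, and the series design calls the controls litter mates. The treatment text is the same for both samples and names a homozygous floxed Foxp1 allele with the Pax6-L-Cre driver, so whether the control carried either allele is not settled by the labels. They do not say how many animals gave each RNA or which cells express the Cre. The arrays shared a slide, on which position and genotype cannot be told apart. Since each genotype has a single array, the values below compare these arrays and carry no p-value. Pairs of signals are given with the control array first.

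Lens fibre cells elongate many times over and lose their organelles, and their shape rests on an actin network under the plasma membrane. In fibres this network is a lattice of spectrin held by ankyrin and protein 4.1, with short actin filaments capped by tropomodulin and coated by tropomyosin. In lens epithelium actin forms contractile bundles with nonmuscle myosin. SRF, with its coactivator MRTF-A (the product of Mkl1), and YAP and TAZ (the products of Yap1 and Wwtr1), with TEAD factors, switch on many actin and matrix genes when actin polymerises or cells are under tension. Smooth muscle actin, transgelin and calponin are among the best-known targets of SRF, and Ccn1, Ccn2, Ankrd1 and Amotl2 among those of YAP.

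Acta2, which encodes smooth muscle actin, and Ccn2, which encodes a matricellular growth factor, were the members at least 2-fold brighter in the knockout lens, and Clic5, which encodes a chloride intracellular channel family protein tied to ezrin at the actin cortex, was the member at least 2-fold dimmer there. Acta2 was 4.27-fold higher, Ccn2 3.19-fold higher and Clic5 4.07-fold lower. These are 2 higher and 1 lower of 43 members measured, against 1.02% of all 14254 measured genes higher and 5.86% lower. Because earlier results were known when the members were listed, member shares here and below describe the list and do not test it. A gene was called measured when it had a probe well above background on both arrays, and 4 members (Actc1, Cnn1, Clic6 and Ankrd1) did not reach that on either array. Differences are on the log2 scale, as the processed signal of each array relative to its own 75th percentile, knockout minus control, averaged over the measured probes of a gene. The plot of differences by gene shows that the other 40 members lay within the 2-fold limits of -1 and 1.

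**Figure D1:**
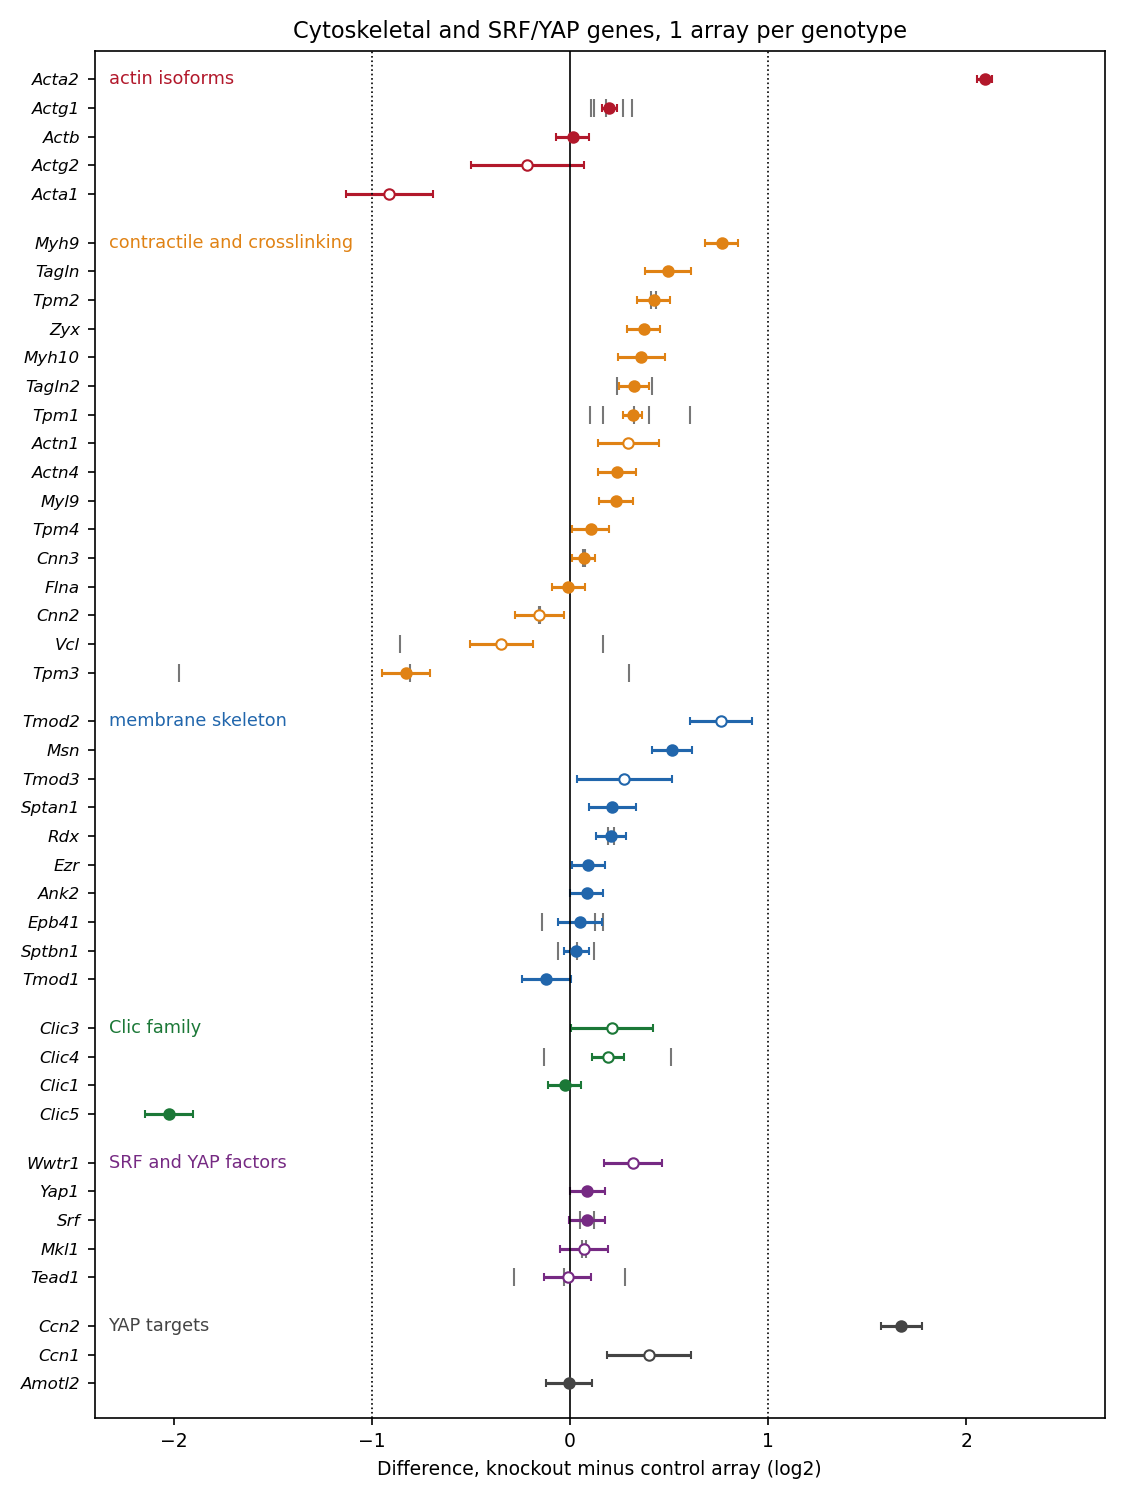
Difference between the knockout and control arrays (log2, x axis) for the 43 measured members by role, where circles are the means over probes, filled for brighter genes and open for dimmer ones, bars the spot SD (of the mean where several spots or probes were averaged), grey ticks single probes and dotted lines 2-fold. Acta2 (2.09) and Ccn2 (1.67) lie beyond the upper line and Clic5 (-2.02) beyond the lower one.

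The arrays carried 59305 spots for genes each, and 67.5% and 56.9% of them were well above background. No spot was saturated (0 on each). The median difference of all measured genes was 0.0060, but it was 0.082 for the 7127 brighter genes (those from the median signal of 352 and 348 upwards) and -0.17 for the 7127 dimmer genes. Spike-in RNAs of known sequence showed the same lean in the dim range, with a probe at 81.0 and 38.3 (-1.07) and a brighter one at 280.0 and 264 (-0.07). The lean was larger at the dimmest spike-ins, which read 52.9 and 6.86 (-2.93) and 19.9 and 3.59 (-2.46). Over all genes the 146 higher and 835 lower calls became 8724 and 101 with array medians, 774 and 233 with quantile normalization, 405 and 290 after loess and 72 and 100 after normexp correction. Array medians raised every gene by 1.08, and directions below are relative to the 75th percentile. Foxp1 itself read 3460.2 and 969.9 on its brightest probe, and its 3 probes had a mean difference of -1.66 ± 0.29 (SD). The deleted exons are not named in the labels, so this does not measure the completeness of the deletion. The RNA was that of lens, since the crystallin genes Cryab and Cryaa read 447835 and 468186, and 384720 and 401173, and the summed signal of 10 lens markers was 7419 and 7434 times the 75th percentile. Error was taken from 281 probes printed at least 5 times per array, whose spot difference had an SD of 0.17, from 0.29 in the dimmest of 5 signal classes to 0.083 in the brightest. This covers spot noise and not the spread between animals. In bulk RNA fewer cells of a type and less RNA per cell cannot be told apart.

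The plot of difference against signal places the members in this background. Of the 43, 30 were at or above the median signal. In that range 24 of 30 (80%) lay above 0, against 67.8% of all genes there, and 0.842% of all genes were at least 2-fold higher and 0.393% at least 2-fold lower. Among the 13 dimmer members 8 lay above 0 (61.5%), against 34% of dim genes, and none (0 of 13) passed 2-fold, where 1.21% of dim genes were higher and 11.3% lower. The median member difference was 0.15 among bright members and 0.19 over all members. With the percentile taken over measured probes 22 of 43 members lay above 0, against 31.7% of all genes. In the settings that keep the 43 members, 27 to 35 of them lay above the median of all genes.

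**Figure D2:**
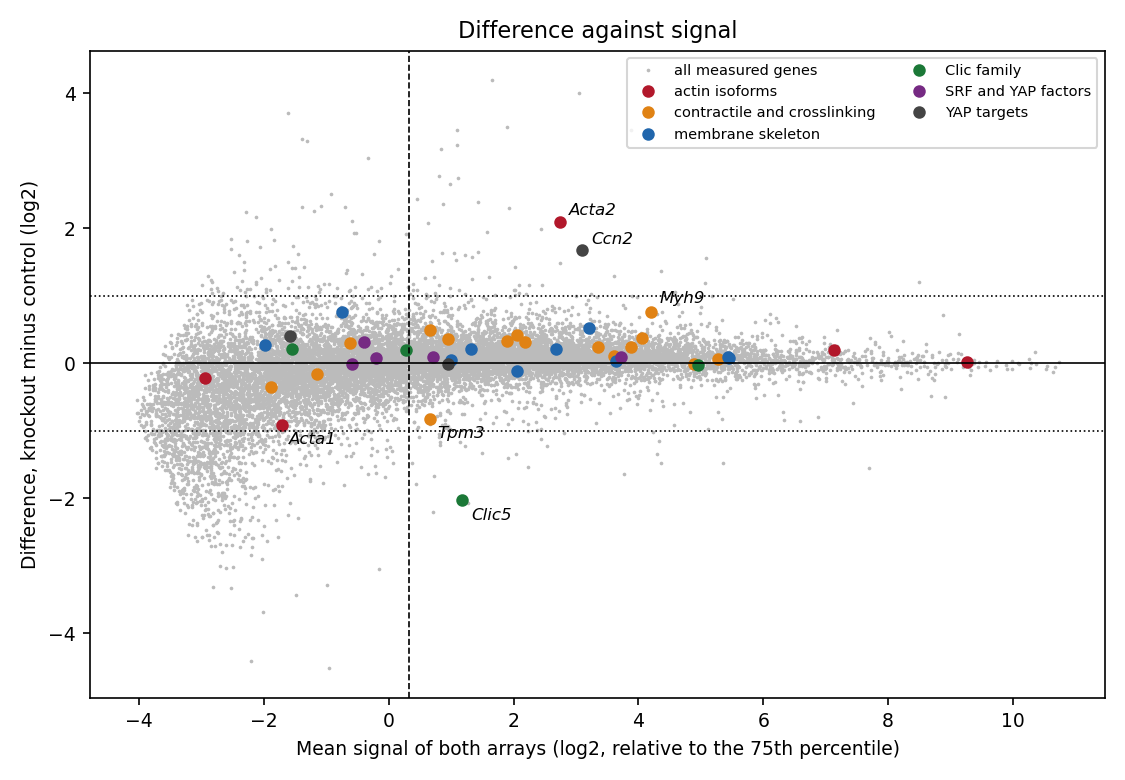
Difference (log2, y axis) against the mean signal of both arrays (log2 relative to the 75th percentile, x axis) for the 14254 measured genes (grey) and the 43 members (coloured by role), with a dashed line at the median signal and dotted lines at 2-fold. Acta2, Ccn2 and Clic5 stand outside the dotted lines, while most members lie close to 0.

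Promoter sequence was set beside the values for Acta2, Acta1, Actg1 and Clic5. Acta2 and Clic5 had the largest differences in either direction, and the actins are the classical SRF genes. The windows run from 250 bases before to 50 after the annotated start site, 5′ to 3′, from RefSeq on build GRCm38.p6. Capitals mark a CArG box (the SRF motif, a palindrome searched once), a CArG box with exactly 1 G or C among its 6 central A or T letters, or GGAATG on either strand (the core TEAD motif, which reads CATTCC on the opposite strand).
Acta2 (chr19:34255324-34255623, minus strand): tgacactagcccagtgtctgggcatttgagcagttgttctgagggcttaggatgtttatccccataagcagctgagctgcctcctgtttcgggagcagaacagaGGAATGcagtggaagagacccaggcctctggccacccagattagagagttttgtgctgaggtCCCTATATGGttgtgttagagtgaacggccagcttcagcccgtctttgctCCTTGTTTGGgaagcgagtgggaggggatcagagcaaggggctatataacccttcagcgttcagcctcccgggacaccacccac
Acta1 (chr8:123894726-123895025, minus strand): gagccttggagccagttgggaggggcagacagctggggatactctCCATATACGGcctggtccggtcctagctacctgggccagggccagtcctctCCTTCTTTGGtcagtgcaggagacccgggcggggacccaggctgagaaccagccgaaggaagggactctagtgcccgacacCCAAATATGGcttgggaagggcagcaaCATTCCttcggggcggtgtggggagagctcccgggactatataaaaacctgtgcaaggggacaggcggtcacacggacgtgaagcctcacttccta
Actg1 (chr11:120348446-120348745, minus strand): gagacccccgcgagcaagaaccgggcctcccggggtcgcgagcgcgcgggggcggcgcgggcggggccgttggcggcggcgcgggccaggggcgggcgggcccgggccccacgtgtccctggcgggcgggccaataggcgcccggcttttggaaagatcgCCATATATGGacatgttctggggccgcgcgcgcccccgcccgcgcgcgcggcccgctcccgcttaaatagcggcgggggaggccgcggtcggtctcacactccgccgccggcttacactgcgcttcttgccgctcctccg
Clic5 (chr17:44188322-44188621, plus strand): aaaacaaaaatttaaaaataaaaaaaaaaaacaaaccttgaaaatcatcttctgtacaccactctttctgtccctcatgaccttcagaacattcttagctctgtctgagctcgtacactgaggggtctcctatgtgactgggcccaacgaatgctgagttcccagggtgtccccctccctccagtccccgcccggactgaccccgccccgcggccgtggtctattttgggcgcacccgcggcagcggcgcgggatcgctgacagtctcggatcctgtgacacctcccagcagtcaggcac

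The Acta2 window held no strict CArG box but the pair of boxes with 1 G or C, CCCTATATGG at -84 to -75 and CCTTGTTTGG at -34 to -25 from the start site, and GGAATG at -146 to -141. The Acta1 window held the strict box CCAAATATGG at -73 to -64, 2 boxes with 1 G or C, and CATTCC at -46 to -41. The Actg1 window held the strict box CCATATATGG at -90 to -81. None of the motifs was found in the Clic5 window. The Actc1 window, not printed above, held 1 strict box and 3 boxes with 1 G or C. A window was listed for 40 of the 47 members, 51 windows in all. None was listed for Ccn2, Actb, Actg2, Tagln, Tmod3, Clic6 or Tead1, so these genes were not searched for motifs. A strict CArG box lay in 13.7% of members' windows and 1.63% of all 32851 windows, one with 1 G or C in 15.7% and 8.5%, and GGAATG in 33.3% and 14.7%. The members were listed partly as known SRF and YAP targets, so these shares describe the list and do not test for enrichment. They count windows rather than genes, and 8 members had several windows. No 2 motifs overlapped in a member window (0 pairs). The 7 members with a strict box were Acta1, Actc1, Actg1, Cnn2, Myl9, Srf and Vcl. Of these 6 were measured, and Acta1, Actg1, Cnn2, Myl9, Srf and Vcl read -0.91, 0.20, -0.15, 0.23, 0.087 and -0.35. A match of letters is not evidence that a factor binds there.

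Among the actins, Acta2 differed from every other measured isoform. Its probe was printed 10 times, of which 1 spot was an outlier by the software's flag. Over the 9 other spots the control signal was 821 to 967 with a median of 926, and the knockout signal 3399 to 4235 with a median of 3838. The spots of the 2 arrays did not overlap, and the spot differences ran from 2.03 to 2.21. The mean difference was 2.09 ± 0.058 (SD over 9 spots), and 15 of the 7127 bright genes, Acta2 included, were as high or higher. With the outlier spot kept it was 2.13. Actb, the cytoplasmic beta actin, read 172973 and 173039, a difference of 0.014 against a spot SD of 0.083. Actg1, the cytoplasmic gamma actin, had 5 probes that all lay slightly above 0, from 0.11 to 0.31, and its brightest probe read 126022 and 134401. Its mean was 0.20. So the main nonmuscle actins were nearly level on the arrays, and the median of the 5 measured actins was 0.014, or -0.11 with the percentile taken over measured probes.

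The other muscle actins were dim. Acta1, skeletal muscle actin, read 118 and 62.2, which is -0.91 with a spot SD of 0.22. The spike-in at 81.0 and 38.3 differed by a similar -1.07. Actg2, enteric smooth muscle actin, read 39.5 and 33.7 (-0.22, spot SD 0.29). Its sign depended on the processing, with 0.88 after quantile normalization and 0.55 after loess. Actc1, cardiac actin, read 4.87 and 10.5, below background on both arrays. Actin genes are near-identical in their coding parts, and the files give no probe sequences, so a share of cross-hybridisation between isoforms cannot be set. With the reported scaling, the high reading of Acta2 on the knockout array was not accompanied by a high reading of Acta1 or Actg2. Actc1 was not measured.

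Markers of cells that carry smooth muscle actin were read beside Acta2. Of 13 genes of smooth muscle and pericytes, 8 were measured, 7 of them dim, 3 above and 5 below 0, with none (0) past 2-fold and a median of -0.27, against -0.17 for all dim genes. Their summed signals were 10.07 and 9.66 times the 75th percentile. Several genes of this list were at or near background. Myh11, smooth muscle myosin, read 24.3 and 7.01 and desmin, Des, 61.8 and 9.90, both above background on the control array alone, and the SRF coactivator gene Myocd (15 and 8.93) and Lmod1 (8.5 and 4.87) were above background on neither. The brightest, Notch3, Smtn and Higd1b, read 1158 and 990, 620 and 918, and 403 and 268. Smtn, the smooth muscle protein smoothelin, was the highest of the 8 measured, with probes at 0.58 and 0.13 and a mean of 0.36. Of the skeletal muscle genes, 12 of 15 dim, 5 of 15 lay above 0 and 4 were at least 2-fold lower, against 34% and 11.3% of all dim genes, and the summed signals were 22.5 and 19.7. Myog, Myod1 and Ckm were above background on neither array, and Myl1 (5.18 and 45.7) on the knockout array alone. Their brightest, the alpha actinin Actn2, the troponin Tnni1 and Actn3, read 3329 and 2626, 1517 and 1577, and 409 and 396. Fibroblast and mesenchyme markers were mixed. Of 9, 5 were measured, 3 above and 2 below 0 and 2 at least 2-fold higher, with summed signals of 4.57 and 5.54. The collagens Col3a1 (33.5 and 94.2) and Col1a1 (31.2 and 63.8) were the higher ones, at dim signals, and the matrix genes Dcn (22.2 and 158) and Lum (4.34 and 48.9) were above background on the knockout array alone. The brightest, Pdgfra, Col1a2 and Fbln1, read 725 and 709, 186 and 261, and 253 and 200, while Twist1 (25.1 and 7.59) was above background on the control array alone and Postn on neither. Of the retina and neuron markers 10 of 11 lay above 0, 1 at least 2-fold, with summed signals of 26.5 and 37.5. Among the brightest were Otx2 (2481 and 3341) and Stmn2 (997 and 1825). Beside the fibroblast and the neuron list, the shares over all measured genes were 50.9% above 0 and 1.02% at least 2-fold higher. The part of these cells in the Acta2 reading was not tested.

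**Figure D3:**
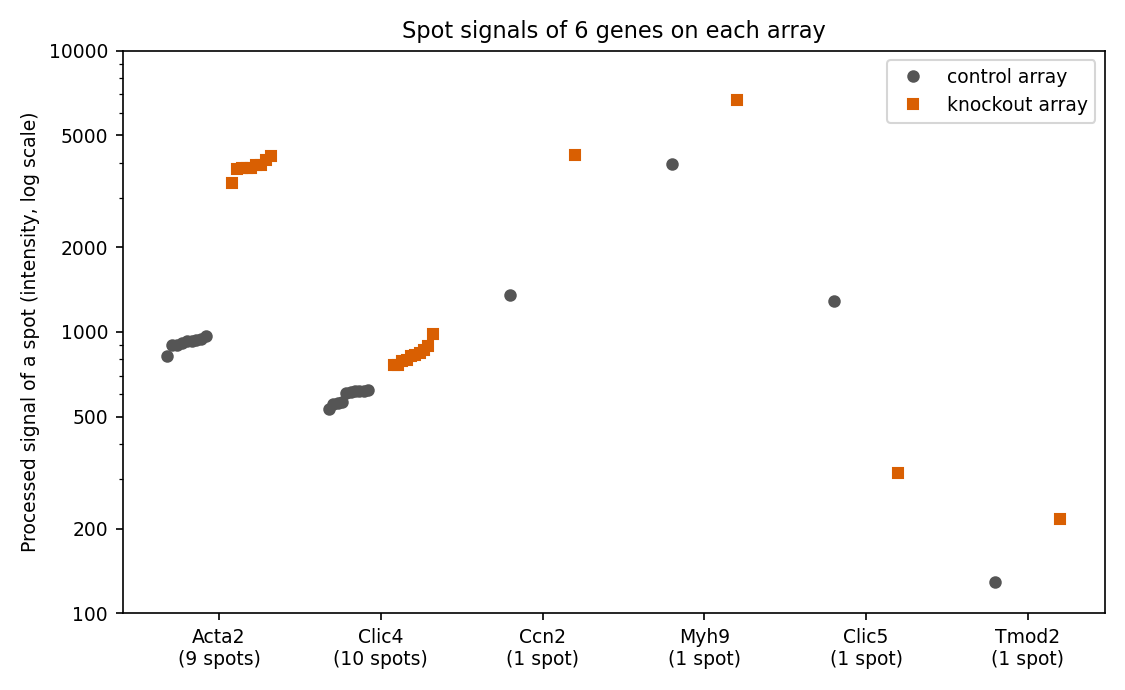
Processed signal of single spots (intensity, log scale on the y axis) for Acta2, Clic4, Ccn2, Myh9, Clic5 and Tmod2 on the control array (grey circles) and the knockout array (orange squares). For Acta2 (9 spots) and the brighter Clic4 probe (10 spots) the arrays separate fully, and the other genes have 1 spot per array.

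Genes of the contractile apparatus and actin crosslinkers read slightly higher as a group. Of 17 members 16 were measured, 12 above and 4 below 0, and none (0) passed 2-fold. The median was 0.27, against 0.0060 for all measured genes and 0.082 for bright genes. The median stayed above 0 in each setting tried, from 0.14 with the percentile taken over measured probes to 0.32 among bright genes, and at 1.35 with array medians, which shift all genes. Myh9, the heavy chain of nonmuscle myosin IIA, was highest. It read 3969 and 6689, a difference of 0.77 with a spot SD of 0.083, and 123 of 7127 bright genes were as high. Myh10, the IIB heavy chain, read 483 and 615 (0.36, spot SD 0.12), and Myl9, a myosin light chain of smooth muscle and nonmuscle cells, read 3843 and 4478 (0.23, spot SD 0.086). The 3 myosin subunits among the members thus lay on the higher side, though below 2-fold. Brighter light chains outside the members did not all share this. Myl6 had both probes lower (-0.14 and -0.32, the brighter at 46574 and 41731), while Myl12a and Myl12b lay at 0.10 and 0.13.

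The SRF target Tagln, transgelin, read 376 and 525 (0.50, spot SD 0.12). Its relative Tagln2 had probes at 0.41 and 0.24, from 2247 to 2963 and from 389 to 454. The calponins bind actin filaments. Cnn3 had both probes level (0.074 and 0.065), Cnn2 had both slightly lower (-0.15 and -0.16, from control signals of 148 and 122), and Cnn1, the smooth muscle calponin, read 5.65 and 2.56, below background on both arrays. Thus of the classical smooth muscle set, Acta2 passed 2-fold, Tagln lay at 1.41-fold and Cnn1 was not detectable over background.

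Tropomyosins coat actin filaments. All 5 Tpm1 probes lay above 0, at 0.60, 0.40, 0.32, 0.16 and 0.10, with the larger values on the probes that read 387 and 388 in the control and the smaller on those at 1561 to 3541. The probes are annotated to different transcripts of Tpm1. Both Tpm2 probes were alike (0.43 and 0.41, from 780 to 1045 and from 1321 to 1740), and Tpm4 read 3310 and 3523 (0.10). Tpm3 gave no single value. Its brightest probe read 18466 and 22465 (0.30), while probes annotated to other transcripts read 95.8 and 54.2 (-0.81) and 118 and 29.7 (-1.97). The mean of -0.83 was the lowest of the contractile group, and with the brightest probe alone the gene lay at 0.30, so its sign depends on the probe.

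Among crosslinkers and adhesion proteins, Zyx, the focal adhesion protein zyxin, read 4152 and 5320 (0.37, spot SD 0.083). The alpha actinins Actn1 and Actn4 read 166 and 202 (0.30) and 2657 and 3107 (0.24), and filamin A, Flna, was level at 8406 and 8281 (-0.0079). Vinculin, Vcl, had discordant probes, 267 to 296 (0.17) and 27.6 to 15.1 (-0.86). Its mean of -0.35 turned to 0.17 with the brightest probe, 0.30 after loess, 0.38 after quantile normalization and 0.0046 after normexp correction, so no direction is given for it.

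All 10 members of the membrane skeleton were measured, 9 lay above and 1 below 0, and none (0) passed 2-fold. Their median was 0.15 over all 10 and 0.088 over the 8 bright ones, against 0.082 for all bright genes, so the bright members lay at the background. With the percentile taken over measured probes the group median was 0.022. The alpha spectrin gene Sptan1 read 654 and 751 (0.21). The 3 probes of the beta spectrin gene Sptbn1 lay at -0.06, 0.036 and 0.12, the brightest reading 59818 and 64456. Ankyrin B, Ank2, which links spectrin to membrane proteins, read 11972 and 12575 (0.085). Protein 4.1R, Epb41, which joins spectrin to actin, read 24458 and 27180 on its brightest probe (0.17) and had 2 dim probes at 0.13 and -0.14. Erythroid markers, whose cells also carry protein 4.1R, leaned lower, with all 7 measured below 0 and 1 at least 2-fold lower. Of all measured genes 50.9% lay above 0 and 5.86% were at least 2-fold lower. The summed erythroid signals were 199.7 and 165, led by Hba-a2 (39930 and 33012), Hba-a1 (10508 and 8744) and Hbb-bt (4325 and 3489). Rhag, Epb42 and Hbb-y were above background on neither array and Kel (449 and 2.43) on the control array alone. Their part in the Epb41 reading was not tested.

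The tropomodulins cap the slow-growing ends of actin filaments and differed among themselves. Tmod1, the isoform of the lens fibre membrane skeleton, read 1218 and 1111 and was the lowest of the group at -0.12, equal to its spot SD of 0.12. Tmod2, known from neurons, read 129 and 217 and was the highest at 0.76 (spot SD 0.16), and 0.54 or more in each setting that kept it, which leaves out the one with brighter genes alone. Tmod3, the widely expressed isoform, was dim at 65 and 77.9 (0.28, spot SD 0.24). Tmod2 moved with neuron markers such as Nefl (597 and 1143) and Stmn2, and their part in its reading was not tested.

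The ezrin, radixin and moesin proteins tie actin to the plasma membrane. Moesin, Msn, read 2180 and 3085, a difference of 0.52 (spot SD 0.099), and came next after Tmod2. Ezrin, Ezr, was level at 11778 and 12431 (0.092), and both probes of radixin, Rdx, lay at 0.22 and 0.19. Moesin is abundant in endothelium. Of 8 endothelial markers, 6 of them dim, 2 lay above and 6 below 0, 1 of them at least 2-fold lower. Of all dim genes 34% lay above 0 and 11.3% were at least 2-fold lower. The endothelial markers had summed signals of 12.9 and 11.9. Their brightest, Kdr, Cldn5 and Tek, read 1684 and 1411, 1330 and 1304, and 146 and 262. Their part in the Msn reading was not tested.

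The Clic family proteins share a glutathione transferase-like fold and act on membranes and the cortical cytoskeleton. Clic5 was the one called member. Its single spot read 1291 and 314, both well above background, which is -2.02 with a spot SD of 0.12. Only 3 of 7127 bright genes, Clic5 included, were as low or lower. At these signals spike-ins reading 280.0 and 264, 566 and 485, and 1568 and 1495 differed by -0.07, -0.21 and -0.05. It was -1.76 to -2.15 under each alternative other than array medians, which gave -0.95, or -2.03 relative to the median of all genes. Clic5 was read by 1 probe, so no second probe checks it.

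The other Clic genes did not share this. Clic1 was level at 8836 and 8591 (-0.027). Clic4, known from endothelium and from cells turning contractile, had a probe printed 10 times that read 533 to 620 with a median of 607.5 in the control and 764 to 981 with a median of 824.5 in the knockout, so the spots did not overlap. That probe differed by 0.51 ± 0.10 (SD over 10 spots), but the dimmer Clic4 probe went the other way, 173 to 157 (-0.13, spot SD 0.16), and the mean was 0.19. Clic3 was dim at 89.2 and 102 (0.21, spot SD 0.21), and Clic6, a gene of secretory epithelia, read 18.0 and 7.80, below background on both arrays. Of a list of 10 genes for partners of CLIC5 and of the ezrin family, 7 were measured, 1 above and 6 below 0, with none (0) past 2-fold and a median of -0.16, and all but Tprn were dim, the range in which -0.17 was the median of all genes. Cd44, the hyaluronan receptor, had the lowest value (-0.63), followed by the motor Myo6 (172 and 113, -0.60) and the sialoprotein Spn (-0.59), and the scaffold Slc9a3r1 lay at -0.16.

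The transcription factors themselves differed little in RNA. All 5 were measured, with a median of 0.087, and none (0) passed 2-fold. Srf had probes at 0.12 and 0.051, from 797 to 860 and from 254 to 260. Mkl1, named Mrtfa in current annotation, had probes at 0.061 and 0.080, the brighter at 659 and 681. Yap1 read 3609 and 3801 (0.088, spot SD 0.089). Each of these differences was about 1 spot SD or less, and the median was -0.040 with the percentile taken over measured probes. Wwtr1, which encodes TAZ, was highest at 192 and 237 (0.32, spot SD 0.15). Tead1, the DNA-binding partner, had its brightest probe at 1712 and 2056 (0.28) and dimmer probes at -0.029 and -0.28, so its mean was -0.011. The arrays report RNA, and the activity of these factors is regulated largely by their movement into the nucleus, which RNA levels do not show.

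The YAP targets split. Ccn2 read 1352 and 4273, which is 1.67 with a spot SD of 0.10, and 19 of the 7127 bright genes were as high or higher. Its difference ran from 1.55 to 1.71 in each alternative other than array medians, which put it at 2.75. Ccn1, the closest relative of Ccn2 in this set, was dim, at -1.79 and -1.39 on the log2 scale relative to the 75th percentile (a difference of 0.40, spot SD 0.21). Amotl2, an angiomotin that restrains YAP and is induced by it, was level at 545 and 539 (-0.0041, spot SD 0.12). Ankrd1, a further YAP target, read 16.0 and 2.60, below background on both arrays. So 1 of the 3 measured targets was at least 2-fold higher, against 1.02% of all measured genes. The high reading of Ccn2 was not shared by Amotl2. Ccn2 is also a target of TGF-beta signalling, and which input acted was not tested.

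Further genes of the same pathways were read from 8 lists, and the plot of these lists shows their spread. Beside each list, 50.9% of all measured genes lay above 0, 1.02% were at least 2-fold higher and 5.86% at least 2-fold lower. The share above 0 was 67.8% of bright genes and 34% of dim genes. Of 18 other YAP target genes 16 were measured, 10 above and 6 below 0, none (0) past 2-fold, with a median of 0.22. The largest values were those of the RNA-binding protein gene Rbms3 (135 and 232, 0.79), the secreted protein gene Fjx1 (1600 and 2505, 0.66), the stress gene Gadd45a (880 and 1312, 0.59) and tissue factor, F3 (52.2 and 34.8, -0.57). Of 23 genes of the Hippo pathway and TEAD family 20 were measured, 7 above and 13 below 0, with 2 at least 2-fold lower and a median of -0.13. These were Nf2, the tumour suppressor merlin, whose probes read 3788 and 2824 (-0.41) and, on a second probe, a difference of -1.77, and Stk3, a Hippo kinase, at 328 and 161 (-1.01). Tead3 and Amotl1 were dim and lay at -0.83 and -0.63. With its brightest probe Nf2 was not 2-fold lower. Bright genes made up 8 of the 16 measured YAP targets and 9 of the 20 measured Hippo and TEAD genes.

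**Figure D4:**
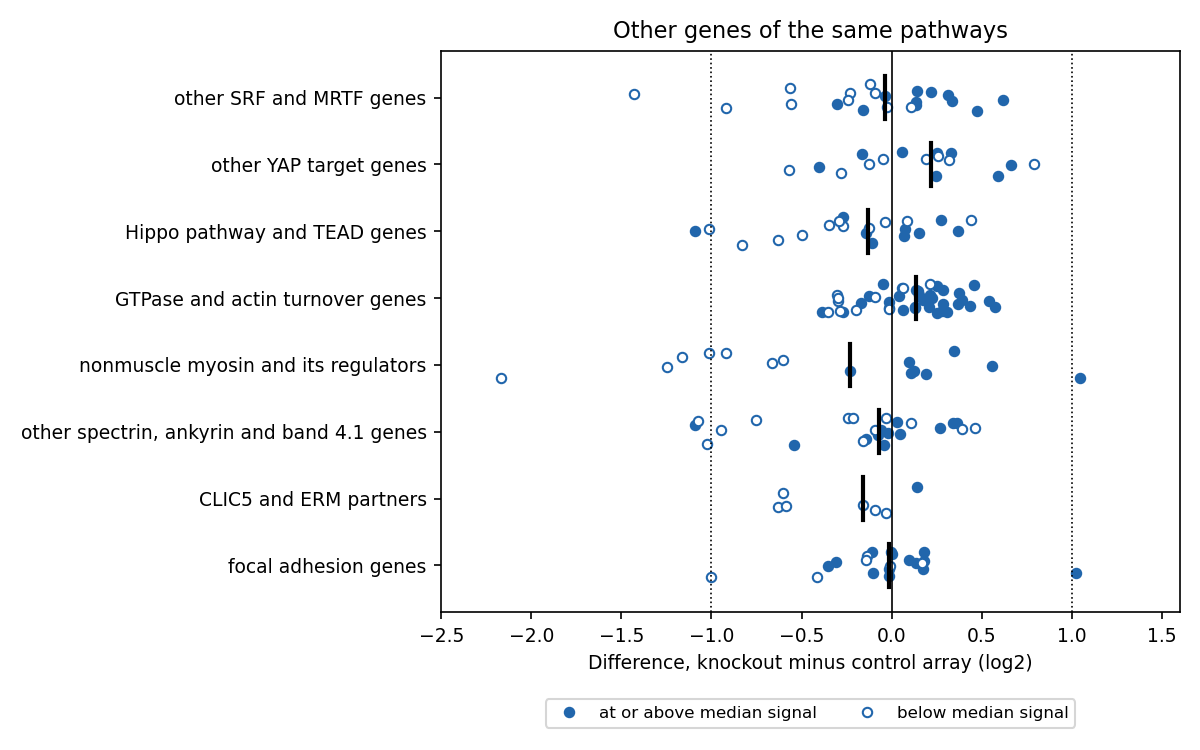
Difference (log2, x axis) of the measured genes of 8 pathway lists (y axis), filled for brighter and open for dimmer genes, with black bars at list medians and dotted lines at 2-fold. Most of the genes beyond the lower line are open circles, and Myo1d (1.05) and Lims1 (1.02) lie beyond the upper one.

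Of 23 other genes of the SRF and MRTF pathway 21 were measured, 9 above and 12 below 0, with a median of -0.038 and 1 at least 2-fold lower, the fibronectin receptor subunit Itga5 at dim signals of 53.3 and 19.6 (-1.43). Myosin light chain kinase, Mylk, was dim at 49.1 and 25.7 (-0.92), Tuft1 was highest at 1149 and 1751 (0.62), and the SRF cofactor Elk4 lay at -0.56 on average with its brightest probe at -0.09. Of 44 genes for small GTPase signalling and actin turnover 43 were measured, 28 above and 15 below 0, none (0) past 2-fold, and the median was 0.13. The bundling protein plastin, Pls3 (0.58), cortactin, Cttn (0.54), destrin, Dstn (12046 and 16364, 0.46), and the actin monomer-binding protein gene Cap1 (4187 and 5599, 0.43) were the largest.

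Of 15 genes for nonmuscle myosins and their regulators all were measured, 7 above and 8 below 0, 1 at least 2-fold higher and 4 at least 2-fold lower, with a median of -0.23. The higher one was Myo1d, a membrane-bound myosin, at 837 and 1713 (1.05). The 4 lower ones were dim as averages. The phosphatase subunit Ppp1r12b read 90.3 and 19.9 (-2.17) and Myo10 51.1 and 25.1 (-1.01), while Myh14 and Myo1c had discordant probes, 0.16 and -2.66 for Myh14 and 0.56 and -2.89 for Myo1c. The brightest probes of the last pair read 1259 and 1397, and 204 and 297. Myh14, the myosin IIC heavy chain, thus gave no single value.

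Of 29 other spectrin, ankyrin and band 4.1 genes, a list that also holds Nf2, 24 were measured, 8 above and 16 below 0, with 3 at least 2-fold lower and a median of -0.068. Ank3, ankyrin G, had all 3 probes lower, between -0.72 and -1.37, the brightest at 407 and 244. Utrophin, Utrn, was dim at 68.9 and 35.3 (-0.95). So ankyrin G and ankyrin B differed in their readings, at -1.03 and 0.085. Of 21 focal adhesion genes 20 were measured, 8 above and 12 below 0, with a median of -0.012. Lims1, which encodes the integrin-linked adaptor PINCH, had both probes higher (0.91 and 1.14, the brighter at 2676 and 5823) and was the one gene at least 2-fold higher. Tns2, a tensin, was the one at least 2-fold lower at 149 and 73.9, Pxn was dim at -0.42, and the 2 probes of talin, Tln1, disagreed at 0.14 and -0.85. Apart from Nf2, the genes at least 2-fold lower in these lists were dim, and of dim genes 11.3% were at least 2-fold lower across the array.

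The remaining marker lists held mostly dim genes, of which 34% lay above 0 across the array. Pigment and ciliary epithelium genes were all below 0 as means over probes (6 measured of 8, none (0) past 2-fold, summed signals of 19.6 and 17.7). Of these 6, 3 were bright, where 67.8% of all genes lay above 0. The brightest were Mitf (3120 and 3251), Pmel (931 and 698) and Dct (720 and 527). The brightest Mitf probe lay at 0.073 and its other probe at -0.16, with a mean of -0.041. Macrophage genes had 1 of 6 above 0 and summed signals of 4.81 and 4.74, with Csf1r brightest at 673 and 690. Cornea and surface epithelium genes had 1 of 6 above 0 and summed signals of 10.04 and 9.73, with Trp63 brightest at 1587 and 1753. The part of these cells in the members' readings was not tested.

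**Figure D5:**
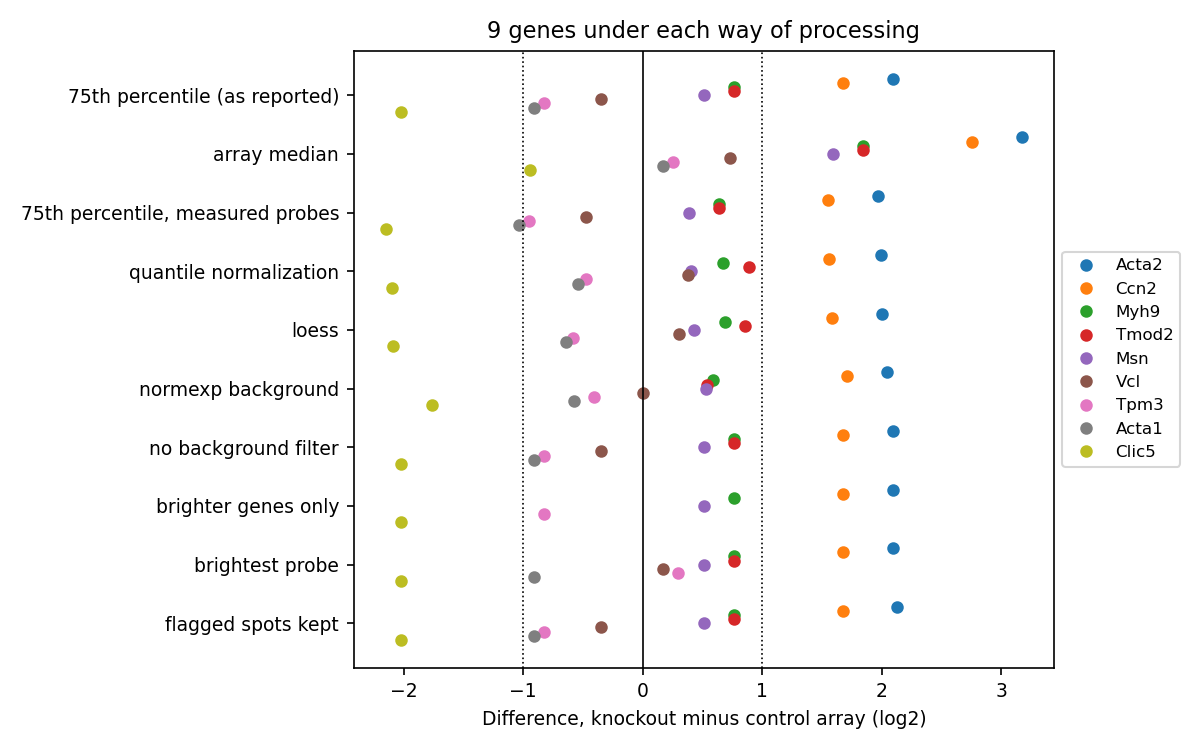
Difference (log2, x axis) of 9 members under the reported processing and each of 9 alternatives (y axis), with dotted lines at 2-fold. Acta2 and Ccn2 stay beyond the upper line in every row and Clic5 beyond the lower line in all but array medians (-0.95). Tpm3 and Vcl cross 0. Acta1 lies above 0 with array medians (0.17) and beyond the lower line with the percentile over measured probes (-1.04).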

How the data were processed

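Per the labels' protocols, lenses were frozen, RNA was taken with Trizol and Cy3-labelled RNA was hybridised to SurePrint G3 arrays. Per the file headers, spots were read with Agilent Feature Extraction 10.7.3.1 at 3 microns, and the probe layout is annotated to mm9. The deposited signal of a spot is a linear intensity from which that software had subtracted background, and the outlier and background flags are the authors' deposited values (0 or 1). No scaling between arrays is given in the sources used here.

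Control spots and spots flagged as outliers on either array (263 spots) did not enter. Processed signals were divided by the 75th percentile of all gene spots on their array, turned to log2 and averaged over a probe's spots. Measured probes had over 50% of spots well above background, by the deposited flag, on each array. Probes were named by matching unversioned RefSeq accessions to the GRCm38.p6 table (27225 of 55655 probes). Mkl1 and Mkl2 were found under their current symbols, and Clic2 and Ahsp were not matched. The fold rule was 2. The steps were tested on simulated data. Python 3.11.15, pandas 2.3.3 and statsmodels 0.14.6 were used.

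The members and lists were chosen with earlier results of these data known. The rule for named genes took members past 2-fold, highest or lowest in their group or with a probe past 2-fold, up to 4 genes of each pathway list with the largest difference plus any bright gene past 2-fold, and the 3 brightest of each marker list. Members beyond the extremes of their groups, markers outside the 3 brightest (those at background, the collagens, Nefl) and Myo10 were named after their values were seen. So were the light chains Myl6, Myl12a and Myl12b. Some genes of these lists are counted but not reported by name here. The 9 alternatives cover scaling, background correction, filters, probes and flags. Normexp used the median spot signal, as the files give no mean.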

Additional observations from a re-analysis of the deposited data

How the results depend on the processing

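No paired analysis was possible because each genotype has 1 array. Array medians moved the median of all genes to 1.08, counted 36 members at least 2-fold higher and 0 lower, and gave medians of 1.09 for actin isoforms, 1.35 for contractile genes, 1.23 for the membrane skeleton, 1.16 for Clic genes, 1.17 for SRF and YAP factors and 1.48 for YAP targets. With the 75th percentile over measured probes 2 members (Clic5 and Acta1) were lower, and these medians were -0.11, 0.14, 0.022, -0.045, -0.040 and 0.27. Quantile normalization gave 0.19 for actins, 0.22 for the factors and 0.79 for YAP targets. Loess gave 0.17 for actins and 0.64 for YAP targets, and normexp 0.22 for YAP targets. Without the background filter 4 members were lower, with medians of 0.11 for actins, -0.027 for Clic genes and 0.20 for YAP targets. Among brighter genes alone the medians were 0.20, -1.03 and 0.83. Taking the brightest probe or keeping outlier spots moved neither count and no group median by more than the spot SD. The causes of the moves were not tested, except that array medians shift all genes alike and the filter settings change which genes enter. Relative to each setting's median of all genes, 2 members were higher and 1 lower in every setting except the one without a filter (3 and 3). Apart from array medians, 25 of 43 measured members kept their sign. Precision is limited by 1 array per genotype and by dim signals, where the knockout array read lower.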
